A study of Mus musculus with 3 samples.

Results

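The transcriptome of sorted cells headed M2 was set against that of cells headed M1, gene by gene. All genes with a level of at least 1 FPKM (fragment counts scaled to the length of the transcript and to the size of the library) in either of these libraries were compared, which gave 12443 of the 36835 genes that had a level in the table. Tumor-associated macrophages are commonly placed between a classically activated state, named M1, and an alternatively activated state, named M2. The first is known for inflammatory cytokines and for killing by nitric oxide, and the second for arginase, scavenger and mannose receptors, and tissue repair. Both remain macrophages, which depend on signalling through the receptor for colony stimulating factor 1, carry the integrin chain CD11b and the surface protein F4/80, and lack the CD3 complex that transmits the signal of the T cell receptor.

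BALB/C mice carried tumors of Renca, a mouse renal tumor cell line, in the kidney, and the paper names the cells as Renca Ch+ L+, which carry Cherry and luciferase. Type-2 macrophages (M2) and type-1 macrophages (M1) were sorted from 30 pooled tumors by flow cytometry after staining for CD45.2, TCRbeta, CD4, F4/80 and CD11b. The M2 gate was F4/80 high with CD11b intermediate and the M1 gate F4/80 intermediate with CD11b high. A further library, labelled CD4, held CD4 T lymphocytes, for which the labels name both the spleen (4 pooled spleens) and the tumor, and serves here only as a reference. The labels give day 14 in one place and day 16 in another for the harvest, and name no genetic modification or treatment of the mice. Since animals were pooled and each subset had 1 library, no ratio below has a replicate error, no test was possible, and each difference is between these libraries.

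The defining genes of macrophages went against the label M2. Cd3e, which encodes the epsilon chain of the CD3 complex (chromosome 9, 44806826 to 44817673, build NCBIM37), was at 126 FPKM in M2 and 0.131 in M1. Itgam, the gene for CD11b (chromosome 7, 135206154 to 135271674), was at 14.7 FPKM in M2 and 299 in M1. Csf1r, the receptor for colony stimulating factor 1 (chromosome 18, 61265226 to 61291803), was at 15.3 FPKM in M2 and 279 in M1. The library labelled M2 was thus high in a T-cell gene and low in both macrophage genes, while the library labelled M1 showed the opposite, as its label says. In the library labelled CD4 the same genes were at 0.141, 201 and 519 FPKM. The libraries are named by their labels throughout, and every direction below rests on those labels.

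**Figure D1:**
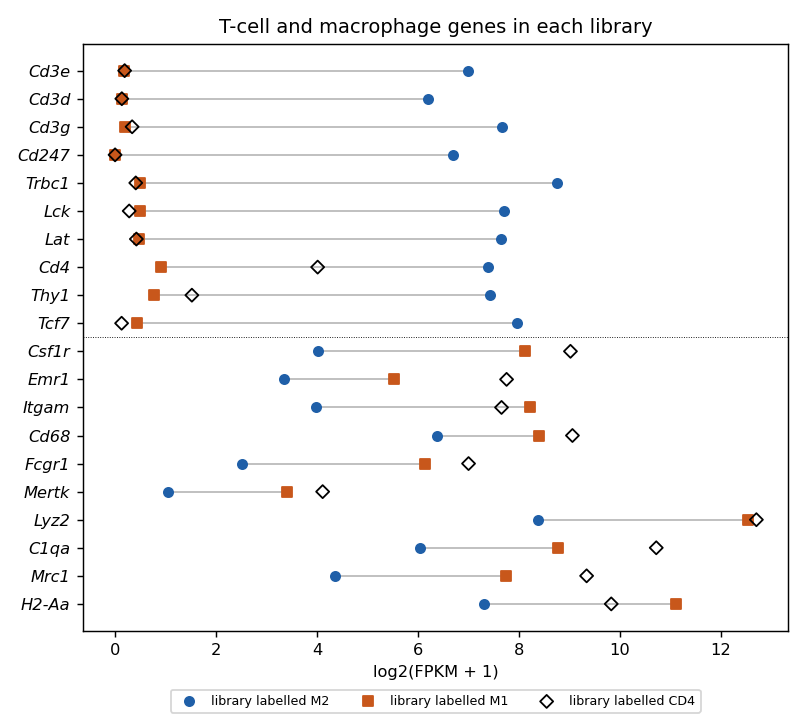
Levels of 10 T-cell genes (above the dotted line) and 10 macrophage genes (below it) in the 3 libraries, as log2(FPKM + 1) on the horizontal axis. Circles stand for the library labelled M2, squares for M1 and open diamonds for CD4, with 1 value each. All 10 T-cell genes lie far to the right in M2, and all 10 macrophage genes lie lowest in M2.

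Read depth was similar in both libraries, estimated as 60100000 to 61000000 fragments for M2 and 61000000 to 61800000 for M1. At these depths the level of Cd3e in M2 corresponds to about 10861 fragments on its main transcript and that in M1 to about 11.6. Itgam corresponds to about 4143 fragments in M2 and 85814 in M1. On a transcript of 2000 bases, 3 fragments give 0.0249 FPKM in M2 and 0.0244 in M1, so that a level such as 0.131 FPKM was within reach of the sequencing but rests on few fragments. These figures cover counting error only.

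Over all genes compared, the libraries differed widely. On the scale of the log2 ratio of FPKM + 1, which understates the change of low genes, 2110 genes (17.0%) were at least 2-fold higher in M2 and 1806 (14.5%) at least 2-fold lower, and these limits define higher and lower in the following. The remaining 8527 genes (68.5%) lay within the limits. Pearson's r across genes was 0.70 and Spearman's rho 0.708, as a description of 12443 genes that share their libraries. The log2 ratio had a median of 0.10, quartiles of −0.51 and 0.70, and 1st and 99th percentiles of −4.07 and 4.38. The genes just past the upper limit were at 1.0011 and those just short of it at 0.9996, and at the lower limit these values were −1.0001 and −0.9991.

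**Figure D2:**
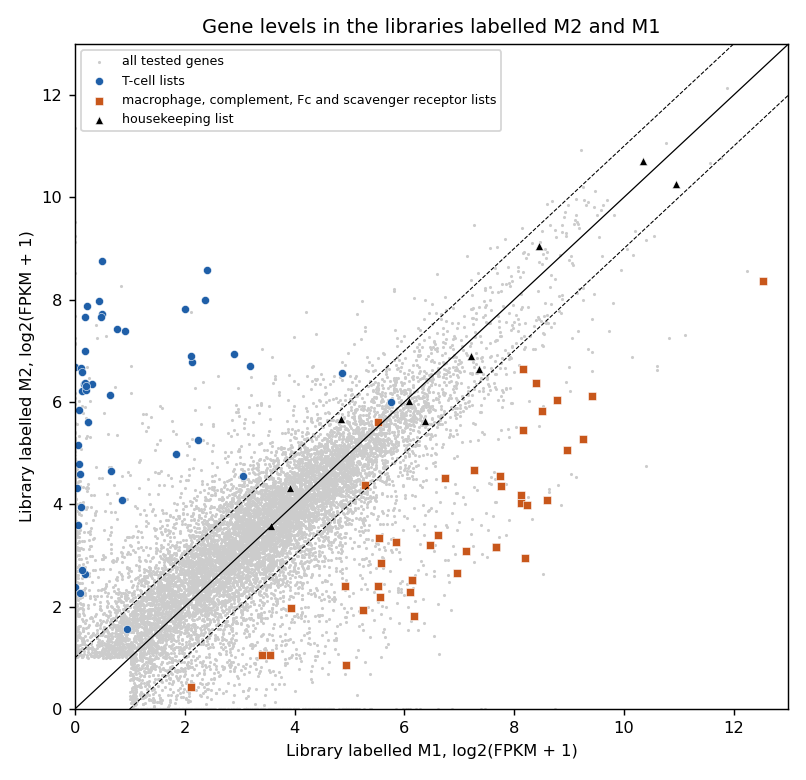
Level of each of the 12443 genes in the library labelled M1 (horizontal) and M2 (vertical), both as log2(FPKM + 1). The solid line marks equal levels and the dashed lines the 2-fold limits, circles are genes of 5 T-cell lists, squares genes of the macrophage, complement, Fc receptor and scavenger receptor lists, and triangles housekeeping genes. T-cell genes lie at the upper left, macrophage genes at the lower right, and housekeeping genes within the limits.

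The share of genes lower in M2 increased with the level, whereas that of genes higher in M2 varied less. Of the 628 genes at 100 FPKM or more in either library, 90 (14.3%) were higher and 215 (34.2%) lower. Of the 1952 genes whose highest level was between 1 and 3 FPKM, 18.6% were higher and 10.5% lower. Genes higher in M2 made up 19.8% of the summed FPKM of M2 and 3.77% of that of M1. Genes lower in M2 made up 34.6% of the summed FPKM of M1 and 9.07% of that of M2. A part of both groups was listed at exactly 0 in the lower library, namely 584 of the higher genes (27.7%) and 327 of the lower genes (18.1%). An exact 0 in this table can be a failed estimate, so such genes are given as listed at 0 and without a fold.

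The genes were then described by 39 lists of 454 different genes, of which 409 reached the minimum level. A gene that reached 1 FPKM in M2 alone could only lie on the higher side, and one that did so in M1 alone on the lower side, so the counts are descriptions. Where a pair of levels is given, that of M2 comes first and that of M1 after it. In bulk RNA, fewer cells of a type and less RNA per cell cannot be told apart.

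The T cell receptor is a pair of variable chains that signals through the CD3 chains, the kinase Lck, the kinase Zap70 and the adaptor Lat. All 6 measured members of the list of CD3 chains and T cell receptor constant genes were higher in M2, with a median log2 ratio of 7.15 against 0.10 over all genes. In the rows used, each of the 6 was below 1 FPKM in M1. Cd3g was at 203 against 0.138 FPKM in M2 and M1, and Cd3d at 72.9 against 0.0967 FPKM. Cd247, the zeta chain, was at 102 FPKM in M2 and listed at 0 in M1, and with all rows summed it was at 3.14 FPKM in M1 (log2 ratio 4.64). Trbc1, a constant gene of the beta chain, was at 434 against 0.400 FPKM, the highest level of the list, and its near copy Trbc2 at 235 against 0.159 FPKM. Reads can be split between these copies, so their separate levels are uncertain. Summed over the list, the level was 1173 FPKM in M2 and 0.926 in M1, or 1266 and 5.03 with all rows summed.

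Of 14 genes of proximal T cell receptor signalling, 13 were higher in M2 and 0 lower (median 5.05), and 11 reached the minimum level in M2 alone. Lck was at 209 against 0.408 FPKM, Lat at 200.2 against 0.382 FPKM and Zap70 at 56.7 against 0.0547 FPKM. Prkcq, the protein kinase C isoform of the T-cell synapse, was at 73.9 against 0.145 FPKM. Each of these 4 genes was below 1 FPKM in M1. The costimulatory receptor Cd28 was at 47.8 against 0.178 FPKM. Lcp2, an adaptor that myeloid cells also use, was the exception at 63.1 against 53 FPKM (log2 ratio 0.25). Fyb, another adaptor shared with myeloid cells, had the smallest ratio of the 13, at 93.5 against 28.2 FPKM (1.69).

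All 9 measured surface co-receptors were higher in M2 (median 6.12), and 8 reached the minimum level in M2 alone. Cd4, the co-receptor of helper T cells, was at 166 FPKM in M2 and 0.870 in M1, and at 15.2 in the library labelled CD4. Thy1, a pan-T-cell surface protein, was at 171 against 0.705 FPKM, Cd5, a brake on receptor signalling, at 81.3 against 0.135 FPKM and Cd27, a costimulatory receptor, at 78.8 against 0.145 FPKM. The chains of the co-receptor of cytotoxic T cells were far lower, with Cd8a at 5.18 against 0.132 FPKM and Cd8b1 at 5.59 against 0.0854 FPKM. Within M2, Cd4 was therefore the dominant co-receptor per length of transcript, although both Cd8 genes also passed the limit.

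Transcription factors of the T lineage followed the same order. Of 10 members, 9 were higher and 0 lower (median 3.68), and 9 reached the minimum level in M2 alone. Tcf7, which encodes TCF-1, was at 249.9 against 0.344 FPKM, and Lef1, its close relative, at 95 against 0.0897 FPKM. Ets1, a factor of lymphocyte development, was at 252 against 4.14 FPKM and Satb1, a chromatin organizer of thymocytes, at 69.3 against 0.547 FPKM. The factors of helper subsets were lower in level. Gata3, the factor of type 2 helper cells, was at 16 against 0.807 FPKM, and Tbx21, that of type 1 helper cells, was at 4.21 FPKM in M2 and listed at 0 in M1. Per length of transcript, Tcf7, Lef1 and Ets1 thus stood far above Gata3 and Tbx21.

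Genes of naive T-cell homing and survival were higher in M2 in 7 of 7 cases (median 3.52), and all 7 had at least 1 FPKM in both libraries, so that none was compared only because of M2. Ccr7, the chemokine receptor of lymph node entry, was at 122 against 6.44 FPKM. S1pr1, the receptor for exit from lymphoid organs, was at 118 against 3.32 FPKM, and Il7r, the receptor chain for the survival cytokine interleukin 7, at 104 against 8.15 FPKM. Foxo1, a transcription factor that drives several of these genes, was at 37.3 against 3.75 FPKM, and Bcl2, which protects from apoptosis, at 30.7 against 2.59 FPKM.

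Of the 10 regulatory T-cell genes, 8 were higher in M2 and 0 lower (median 3.25), and 9 reached the minimum level in M2 alone. Foxp3, the lineage factor of regulatory T cells, was at 24.9 FPKM in M2 and listed at 0 in M1. Folr4, a surface protein of these cells, was at 53.8 against 0.106 FPKM, Ctla4, an inhibitory receptor, at 13.1 against 0.0538 FPKM, Tnfrsf4, which encodes OX40, at 19.9 against 0.633 FPKM and Il2ra, the high affinity chain of the interleukin 2 receptor, at 10.2 against 0.444 FPKM. Foxp3 thus did not stand alone. Nt5e, the ecto-enzyme CD73, which macrophages also carry, pointed the other way at 8.95 against 13.7 FPKM and stayed within the limits (-0.56). Summed over the list, the level was 153 FPKM in M2, 15.4 in M1 and 3.36 in the library labelled CD4. From its RNA sequencing the paper instead reports the known Foxp3 isoforms in the CD4 T cells, and none significantly in M1 or M2 macrophages. In both macrophage types its sequencing gave only a further variant at a low level. By other methods the paper also reports Foxp3 in M2 macrophages, as mRNA by RT-PCR in some M2 cells. It reports the protein there by flow cytometry and Western blot. The Foxp3 level in the library labelled M2 thus conflicts with the sequencing result of the paper, and the reason was not tested.

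V segments are joined to D and J segments only in lymphocytes, and their transcripts record many rearrangements. The annotation named 206 V segments with a level, of which 127 reached 1 FPKM, and 126 of these were higher in M2. The highest level of any of them in M1 was 0.618 FPKM, so that all 127 were compared because of M2 alone. All 34 Trav and all 14 Trbv segments were higher, the latter with a median log2 ratio of 5.26. Trbv5 was at 63.7 FPKM in M2 and 0.0513 in M1, Trbv13-1 at 59.1 and 0.134, and Trav7-4 at 16.1 and 0.0175. The level in M2 was thus spread over many segments. Summed over all 127, the level was 1052 FPKM in M2 and 3.75 in M1. V segments are similar to each other, so reads can be shared between them and single levels are uncertain.

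**Figure D3:**
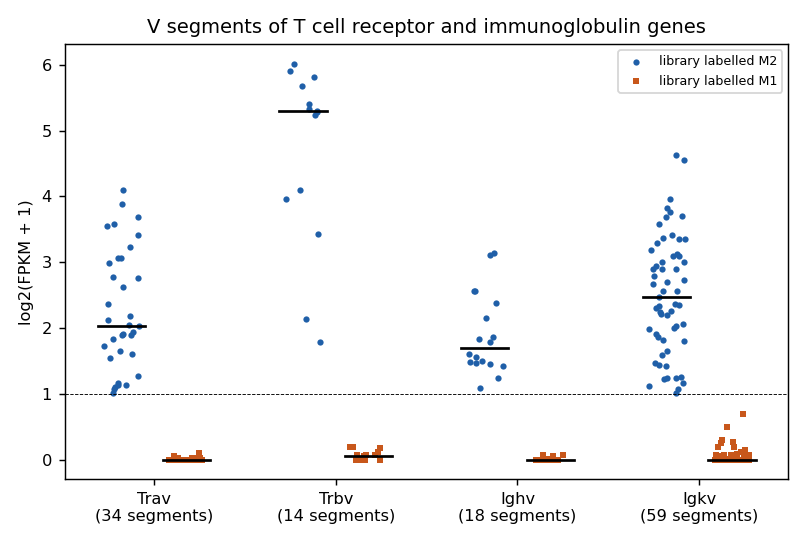
Levels of V segments of the T cell receptor alpha (Trav) and beta (Trbv) and immunoglobulin heavy (Ighv) and kappa (Igkv) loci, as log2(FPKM + 1), with the number of segments compared under each name. Circles stand for M2 and squares for M1, black bars for medians, and the dashed line for the minimum level of 1 FPKM. Each segment exceeds 1 FPKM in M2, and none does in M1.

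Lymphocyte genes in M2 were not restricted to T cells. All 18 Ighv segments and 58 of 59 Igkv segments were higher, Igkv1-117 being at 23.6 FPKM in M2 and listed at 0 in M1. Of 6 measured B-cell genes, 5 were higher and 0 lower (median 3.16), and 5 reached the minimum level in M2 alone. Cd79a, a signalling chain of the B cell receptor, was at 18.2 against 0.161 FPKM, and Ms4a1, which encodes CD20, at 13.5 against 0.0250 FPKM. Igkc, the constant gene of the kappa light chain, was at 154.8 FPKM in M2 and 0.474 in M1. The B-cell list summed to 63.9 FPKM in M2 and 1.46 in M1.

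Cytotoxic genes were low but mostly higher in M2, in 8 of 10 measured members, with 1 lower (median 1.72). The 8 higher members reached the minimum level in M2 alone and the lower member in M1 alone, so their sides were set by that minimum. Cd8a and Cd8b1 are counted here as well as among the surface co-receptors. Nkg7, a granule protein of cytotoxic cells, was at 17.1 against 0.272 FPKM, Gzma, a granzyme, at 8.69 against 0.115 FPKM and Gzmb, another, at 2.51 against 0.0534 FPKM. Klrb1c, which encodes the NK cell receptor NK1.1, was the lower member at 0.735 against 3.18 FPKM. Apart from Nkg7 no member exceeded 10 FPKM in either library.

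Core macrophage genes showed the opposite direction without exception. All 15 were lower in M2, from a log2 ratio of −4.51 to one of −2.02 (median −3.32), and each had at least 1 FPKM in both libraries. Lyz2, the lysozyme of myeloid cells, was at 330.2 FPKM in M2 and 5975 in M1, the highest level of any gene in the comparison in M1. Spi1, which encodes the myeloid factor PU.1, was at 7.51 against 139 FPKM, Msr1, a scavenger receptor for modified lipoproteins, at 7.96 against 203 FPKM and Mpeg1, a pore protein of phagocytes, at 22.3 against 212 FPKM. Emr1, the gene for F4/80, was at 9.16 against 45.3 FPKM, and Cd68, a glycoprotein of the endosome, at 81.8 against 336 FPKM. The gates hold M2 to be the F4/80 high subset, and in the libraries as labelled Emr1 was 4.94-fold lower in M2 in FPKM. The macrophage genes were not absent from M2, where they summed to 620.8 FPKM against 8648 in M1 and 10128 in the library labelled CD4. The source of this remaining level was not tested.

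Phagocytic receptors and complement followed the core genes. All 5 Fc gamma receptor genes were lower (median −3.63), among them Fcgr2b, the inhibitory receptor for IgG, at 37.6 against 610.1 FPKM, and Fcer1g, the shared signalling chain, at 32.3 against 498 FPKM. Of 11 complement genes 10 were lower and 0 higher (median −2.72). The C1q chains C1qa, C1qb and C1qc, which form a recognition molecule made by macrophages, were at 64.9, 55.9 and 42.5 FPKM in M2 and 440.4, 363 and 284 in M1. Their ratios were alike, at 6.78-, 6.49- and 6.69-fold. C3, the central complement component, which epithelial cells also make, was at 47.7 against 45.1 FPKM and did not follow them.

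Of the 11 scavenger and C-type lectin receptors, 10 were lower in M2 and 0 higher (median −3.40). Mrc1, the mannose receptor, was at 19.5 against 215 FPKM, Clec4n, which encodes the fungal receptor Dectin-2, at 15.9 against 386 FPKM and Clec7a, which encodes Dectin-1, at 2.53 against 70.9 FPKM. Mgl2, a galactose-binding lectin, had the most negative ratio of the list (-5.25), at 6.72 against 292 FPKM. Stab1, a scavenger receptor shared with endothelium, was at 19.8 against 37.9 FPKM and within the limits.

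The genes by which M2 and M1 states are usually told apart lay mostly on the same side, lower in M2. Of the 12 alternative activation genes, which the label M2 names, 0 were higher in M2 and 10 were lower (median −2.80). Arg1, arginase 1, was at 12.1 against 321 FPKM, Retnla, a secreted resistin-like protein, at 0.209 against 34.2 FPKM, Tgfbi, a matrix protein induced by TGF beta, at 14.7 against 459.5 FPKM and Ccl17, a chemokine, at 0.603 against 40.5 FPKM. Il4ra, the receptor chain for interleukin 4, was close in both at 22.5 against 23 FPKM, and Il10, an anti-inflammatory cytokine, at 1.02 against 0.0870 FPKM lay just within the limit (0.89). With all rows of an identifier summed, Il10 passed it (1.14) and the lower Irf4 and Pdcd1lg2 no longer did.

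Of the 10 measured classical activation genes, 0 were higher and 7 lower (median −1.95). Il1b, the fever cytokine, was at 20.2 against 229.8 FPKM, Irf5, a factor of inflammatory macrophages, at 10.2 against 124 FPKM, and the costimulatory ligands Cd80 and Cd86 at 2.25 against 29.5 FPKM and 3.52 against 25.2 FPKM. Nos2, which makes nitric oxide, was low in both libraries, at 1.59 against 3.27 FPKM, and Tnf at 12 against 18.6 FPKM, and both were within the limits. Both activation lists therefore lay on the lower side in M2, with the alternative list further from 0. The core macrophage genes lay further still (median −3.32). This order therefore does not separate activation from the level of macrophage genes as a whole. In the alternative list 5 genes reached the minimum level in M1 alone, and in the classical list 2.

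MHC class II genes did not all lie on the same side. Of 10 members, 8 were lower and 2 higher in M2 (median −3.86), beside 14.5% lower and 17.0% higher among all genes. Cd74, the invariant chain, was at 374 against 4867 FPKM, H2-Aa, a chain of the peptide-presenting dimer, at 157 against 2224 FPKM and Ciita, the master regulator of the pathway, at 1.64 against 48.8 FPKM. H2-Oa and H2-Ob, the chains of the H2-O dimer, which restrains peptide loading and is known from B cells and some dendritic cells, were the higher members, at 6.28 against 0.619 FPKM and 19 against 1.23 FPKM. H2-Oa reached the minimum level in M2 alone, so its side was set by that minimum. The B-cell genes above moved to the same side as H2-Oa and H2-Ob, and their part in this result was not tested.

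**Figure D4:**
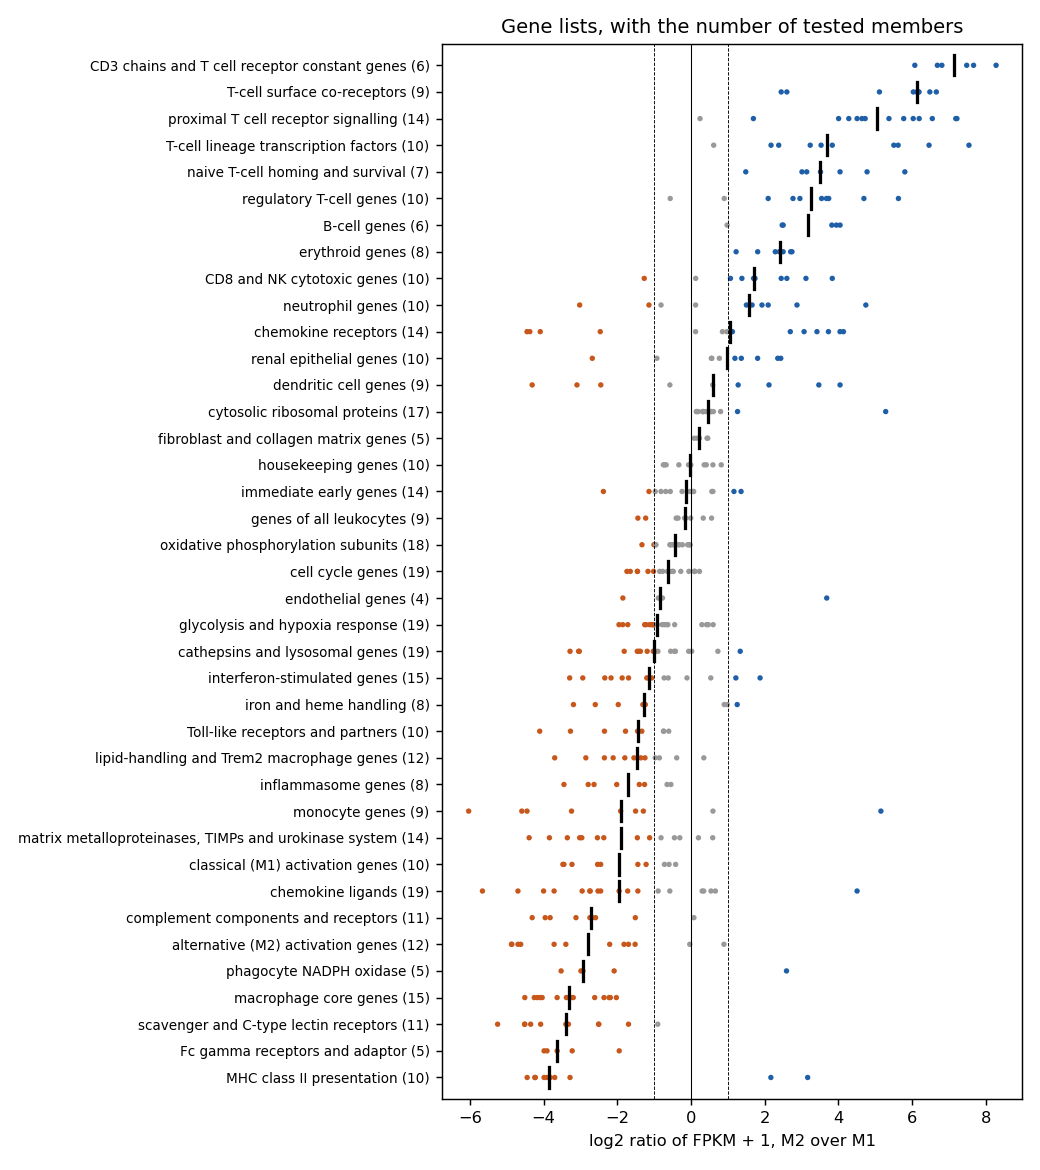
Log2 ratio of FPKM + 1, M2 over M1, of every measured member of the 39 gene lists, with the number of members in brackets. Each point is a gene, blue where it was at least 2-fold higher, orange where at least 2-fold lower and grey within the dashed limits, and black bars are list medians. Lymphocyte lists lie at the top to the right, housekeeping and leukocyte lists near 0, and macrophage lists at the bottom to the left.

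Chemokine receptors split by the cells that are known to bear them, with 7 of 14 higher and 4 lower. The minimum level was reached in M2 alone by 6 of the 14. Cxcr3, a receptor of activated T cells, was at 19.1 against 0.140 FPKM, Cxcr6, of effector T cells, at 14.3 against 0.156 FPKM and Ccr4, of helper and regulatory T cells, at 7.67 against 0.0324 FPKM. Ccr9, which guides T cells to the gut, and Cxcr5, which guides cells to B-cell follicles, were at 9.7 and 5.48 FPKM in M2 and listed at 0 in M1. The lower members were those of myeloid cells. Ccr2, the receptor that brings monocytes into tissue, was at 23.1 against 526 FPKM, Ccr1 at 3.31 against 72.4 FPKM and Cx3cr1 at 4.38 against 28.6 FPKM. The list median of 1.05 therefore stands between groups that lie apart, and among genes with at least 10 FPKM it was −0.74.

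Of 19 chemokine ligands 12 were lower in M2 and 1 was higher (median −1.95). Ccl6, a ligand of myeloid cells, was at 25.7 against 1347 FPKM, Ccl2, the ligand of Ccr2, at 44.7 against 262 FPKM and Cxcl16, the ligand of Cxcr6, at 11.3 against 81.2 FPKM. Ccl5, a ligand that T cells also make, was at 34.1 against 21.2 FPKM and within the limits (0.66). The higher gene was Ccl7, at 21.8 FPKM in M2 and listed at 0 in M1. The neutrophil attractants Cxcl1 and Cxcl2 differed little, at 17.6 against 11.8 FPKM and 73.2 against 57.4 FPKM.

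Monocyte genes were lower in M2 in 7 of 9 cases and higher in 1. Fn1, fibronectin, was at 22.2 against 558 FPKM, and Vcan, a proteoglycan of classical monocytes, at 0.395 against 12.2 FPKM. The near copies Ly6c1 and Ly6c2, surface antigens of T cells and monocytes, were listed at 0 in opposite libraries, Ly6c1 at 34.6 FPKM in M2 and Ly6c2 at 64.5 in M1. With all rows summed, neither passed the limit, so these calls are uncertain.

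Neutrophil genes went the other way from macrophage genes in part, with 6 of 10 higher and 2 lower (median 1.58). The minimum level was reached in M2 alone by 3 of the 10. S100a8 and S100a9, the subunits of calprotectin, were at 84.5 against 19 FPKM and 109.7 against 28.1 FPKM. Ngp and Ltf, granule proteins of developing neutrophils, were at 26.6 against 0.0270 FPKM and 7.75 against 0.191 FPKM. Mmp8, the neutrophil collagenase, was lower, at 1.08 against 15.9 FPKM. The neutrophil genes Mpo, Elane and Ly6g did not reach 1 FPKM in either library.

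Dendritic cell genes were divided, with 4 of 9 higher and 3 lower. The minimum level was reached in M2 alone by 3 of the 9 and in M1 alone by 2. Siglech, a receptor of plasmacytoid dendritic cells, was at 13.2 against 0.286 FPKM and Flt3, the growth factor receptor of dendritic cell precursors, at 2.19 against 0.314 FPKM. Itgax, which encodes CD11c, was at 5.3 against 124 FPKM and Batf3, a factor of conventional dendritic cells, at 0.404 against 11 FPKM.

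Effector machinery of phagocytes was lower in M2. Of the 5 measured subunits of the phagocyte NADPH oxidase, 4 were lower, among them Cybb, the catalytic subunit, at 19.1 against 152 FPKM. The higher member was the GTPase Rac2, used by all blood cells, at 211 against 34.2 FPKM, and with all rows summed its ratio was within the limits. Of the 10 measured genes in the list of Toll-like receptors and their adaptor Myd88, 7 were lower and 0 higher (median −1.43). Tlr8, a sensor of RNA, was at 1.03 against 33.8 FPKM and Tlr13, a sensor of bacterial ribosomal RNA, at 2.77 against 35.3 FPKM. Tlr4, the receptor for endotoxin, was at 3.37 against 21.3 FPKM. Counted by the symbol Tlr, within and outside the list, 10 genes were measured, with 6 lower and 1 higher. Of 8 inflammasome genes 6 were lower and 0 higher (median −1.71), with the sensor Nlrp3 at 4.56 against 21.5 FPKM. Aim2, a sensor of DNA that was listed at 0 in M2 and at 5.91 FPKM in M1, was the only list member whose direction turned with all rows summed, to 35.6 FPKM in M2 and 16.7 in M1.

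Matrix-degrading enzymes were lower in M2 in 9 of 14 cases and higher in 0 (median −1.91). Mmp12, the macrophage elastase, was at 18 against 398 FPKM, Mmp14, a membrane-bound collagenase, at 2.97 against 39.7 FPKM, Plau, urokinase, at 19.98 against 121 FPKM and its receptor Plaur at 6.5 against 106 FPKM. Timp2, an inhibitor of these enzymes, was at 37.2 against 46.2 FPKM and within the limits.

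Lysosomal genes differed less and less uniformly, with 10 of 19 lower and 1 higher (median −1.01). Ctss, the cathepsin that trims the invariant chain, was at 116 against 1136 FPKM and Ctsc, which activates granule proteases, at 13.2 against 115 FPKM. Ctsd, found in lysosomes of nearly all cells, was close in both at 107 against 105 FPKM. Gpnmb, a glycoprotein of lipid-laden macrophages, was the higher member, at 82.6 against 32.1 FPKM. Of 12 lipid-handling genes 8 were lower and 0 higher (median −1.45), with Trem2, a lipid receptor of tissue macrophages, at 5.74 against 47.7 FPKM, Lpl, lipoprotein lipase, at 0.898 against 23.6 FPKM and Apoe, apolipoprotein E, at 197 against 687 FPKM. Spp1, osteopontin, was abundant in both, at 652 against 1182 FPKM. Of 8 genes of iron and heme handling 5 were lower and 1 higher (median −1.27). Hmox1, which degrades heme, was at 38.7 against 239 FPKM and Slc11a1, the metal exporter of the phagosome, at 4.41 against 48.3 FPKM, while Slc40a1, the iron exporter ferroportin, was higher at 4.94 against 1.49 FPKM.

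Interferon-stimulated genes did not move as a block. Of 15 members 9 were lower and 2 higher (median −1.15). Mx1, an antiviral GTPase, was at 0.723 against 15.9 FPKM, Rsad2, viperin, at 2.9 against 28.9 FPKM and Ifi44 at 6.75 against 38.2 FPKM. Gbp2, a GTPase induced by interferon gamma, was among the higher members, at 27.8 against 11.4 FPKM.

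Lists of functions that all cells share lay close to 0. Of 10 housekeeping genes 0 passed either limit (median −0.03), with Actb, beta actin, at 1234 against 1968 FPKM and Polr2a, the large subunit of RNA polymerase II, at 49.7 against 27.7 FPKM. Of 9 genes of all leukocytes 2 were lower, beside 14.5% of all genes, and 0 higher (median −0.17). Cd44, an adhesion receptor, was among the lower members at 30.2 against 72.1 FPKM. Coro1a, an actin-binding protein of blood cells, was at 489 against 388 FPKM, and Cd52, a short surface peptide of leukocytes, at 464 against 523 FPKM. In the rows used, 7 of the 9 leukocyte genes thus lay within the limits, while the libraries differed in the genes of particular leukocytes. With all rows summed, Ptprc, the gene for CD45, passed the upper limit.

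Metabolic and growth lists were described next. Of 19 glycolysis and hypoxia genes 9 were lower and 0 higher (median −0.91), with the glucose transporter Slc2a1 at 27 against 91.1 FPKM and hexokinase 2, Hk2, at 5.86 against 23.7 FPKM. Of 18 oxidative phosphorylation subunits 2 were lower, a share no greater than the 14.5% of all genes, and 0 higher (median −0.44). Of 17 cytosolic ribosomal protein genes 2 were higher, a share no greater than the 17.0% of all genes, and 0 lower (median 0.48). The 2 higher genes were Rpl10, listed at 0 in M1, and Rplp1, which lay within the limits with all rows summed. Rpl4 was at 601 against 432 FPKM and Rps3 at 653 against 428 FPKM, both within the limits. Of 19 cell cycle genes 6 were lower and 0 higher (median −0.62). Among the lower were the mitotic genes Top2a, Aurkb and Birc5, at 24 against 67.3 FPKM, 5.95 against 22.2 FPKM and 12.3 against 35.4 FPKM. The other 13 genes lay within the limits, among them the mitotic gene Cdk1 and the replication genes Mcm6 and Pcna. Mcm6 was at 39.8 against 37.1 FPKM and Pcna at 48.4 against 41.1 FPKM. Immediate early genes, which respond to cell handling, had 2 of 14 higher and 2 lower (median −0.14). These shares were no greater than the 17.0% and 14.5% of all genes. Fos was at 77.4 against 153 FPKM and Jun at 39.9 against 89.2 FPKM.

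Genes of other cells in the tumor were examined next. All 8 measured erythroid genes were higher in M2 (median 2.41), with the globin genes Hba-a2 at 295 against 55 FPKM and Hbb-b1 at 249 against 36.4 FPKM, which share reads with their near copies. Among the 8, 4 reached the minimum level in M2 alone, so their side was set by that minimum. Of 10 renal epithelial genes 5 were higher and 1 lower (median 0.98). The minimum level was reached in M2 alone by 4 of these 10 and in M1 alone by 1. Cdh16, the kidney cadherin, was at 87.8 against 33.4 FPKM, Krt18, a keratin of simple epithelia, at 35.8 against 9.51 FPKM and Aqp1, a water channel of the proximal tubule, at 5.55 against 0.279 FPKM. Cdh1, which encodes E-cadherin, was the lower member at 6.69 against 48.2 FPKM. The summed renal list was at 206 FPKM in M2, 122 in M1 and 98.9 in the library labelled CD4. Of 5 measured fibroblast genes 0 passed a limit (median 0.23), with Col3a1, a fibrillar collagen, at 3.59 against 2.34 FPKM. Of 4 measured endothelial genes 1 was higher and 1 lower. Pecam1, which leukocytes also carry, was at 35 against 1.8 FPKM, while Kdr, the endothelial receptor for VEGF, was at 0.350 against 1.3 FPKM. What these cells contributed to the other differences was not tested.

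The largest ratios were then ranked without regard to the lists, among protein-coding genes with at least 10 FPKM in either library. Of the 15 highest ratios, 8 belonged to genes already described, which were Tcf7, Cd3g, Lck, Lat, Cd3e, Cd247, Thy1 and Cd4, and Skap1, an adaptor of T cell receptor signalling, was a further list member at 99.9 against 0.0775 FPKM. Gimap4 and Gimap6, GTPases of lymphocyte survival, were at 305 against 0.792 FPKM and 181 against 0.308 FPKM. Sept1, a septin of lymphocytes, was at 151 against 0.319 FPKM. Hsp90b1, Ptprcap, Psmb8 and Cd247 were listed at 0 in M1. For Psmb8, a subunit of the immunoproteasome, the sum over all rows was 141.8 FPKM in M2 and 107 in M1, so that its place in this ranking depends on the choice of row.

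Of the 15 lowest ratios, 12 belonged to genes listed at 0 in M2. These were Ms4a6c, Dbi, Unc93b1, Commd1, Slc16a3, Rpl6, Mlf2, Ly6c2, Cmtm3, Mndal, Dram2 and Cept1. Rpl6 encodes a ribosomal protein that every cell uses, and for Mndal the sum over all rows was 124.7 FPKM in M2 and 56.3 in M1, the opposite direction. The 3 others were above 0 in both libraries. Ear2, an eosinophil-associated ribonuclease that macrophages also make, was at 5.17 against 366 FPKM, though similar Ear genes can share its reads. Ccl6 has been given above. F10, coagulation factor X, was at 1.1 against 98.2 FPKM.

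The ranking was therefore repeated among genes above 0 in both libraries, a choice made after these zeros were seen. Among those added to the higher side were Tbc1d10c, a regulator of calcineurin and Ras signalling in lymphocytes, at 102 against 0.158 FPKM, Lef1, and Gimap8 at 87.8 against 0.195 FPKM. Added to the lower side were Mgl2, Dpep2, Olfm1, Tgfbi, Retnla, Ltb4r1, Ccl17, Gda, Arg1, Fn1, Lyz1 and Gpr35. Dpep2, a dipeptidase of leukotriene metabolism, was at 1.67 against 92.5 FPKM, Ltb4r1, the receptor for leukotriene B4, at 1.89 against 75.2 FPKM and Lyz1, a near copy of Lyz2 that can share its reads, at 7.79 against 208 FPKM. Of the genes added, Lef1 is a member of a T-cell list, and Mgl2, Tgfbi, Retnla, Ccl17, Arg1 and Fn1 are members of the scavenger receptor, alternative activation or monocyte lists.

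**Figure D5:**
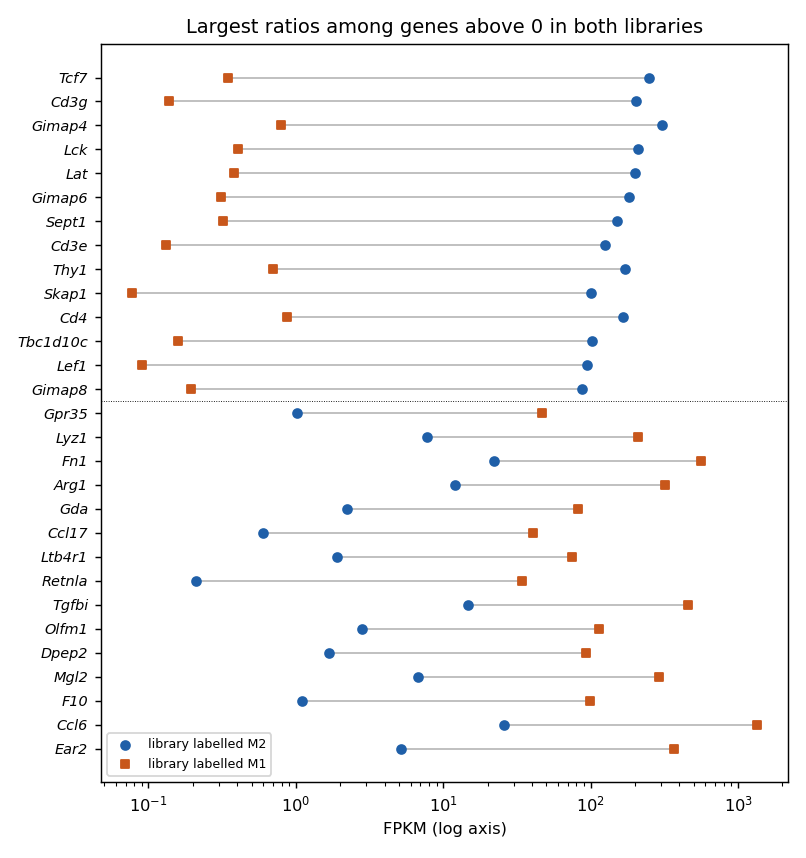
Of the largest ratios, 14 on the higher side (above the dotted line) and 15 on the lower side (below it) among protein-coding genes with at least 10 FPKM in either library and a level above 0 in both, as FPKM on a log axis. Circles stand for M2 and squares for M1. The genes on the higher side lie below 1 FPKM in M1, while those on the lower side lie between 0.209 and 25.7 FPKM in M2.

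Promoters of the genes were searched for short letter patterns of factors known from these lineages, in 300 bases (250 before and 50 after the start site) of the RefSeq promoter table of build GRCm38.p6. Of 12414 gene symbols 7801 had a window there, with 9954 windows in all. The letters GAGGAAGT, a core pattern of PU.1, were found on either strand in 5.36% of the windows of genes lower in M2, 3.11% of those of genes higher in M2, 2.94% of those within the limits and 3.20% of all 32851 promoters. The letters TGTGGTT, a core pattern of RUNX factors, were found in 4.13%, 5.34%, 3.57% and 5.27% in the same order. The pattern of TCF and LEF factors (CTTTGAA) was found in 4.13%, 3.75%, 3.30% and 5.14%, and that of C/EBP factors (TTGCNNAA) in 9.88%, 9.27%, 8.27% and 10.8%. The pattern of CREB factors (TGACGTCA) was found in 2.0%, 2.35%, 3.33% and 1.79%, and the TATA box (TATAAA) in 8.33%, 7.04%, 6.76% and 13.6%. Genes with several start sites count several times, and these shares are descriptions.

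Windows of 30 bases around matches show the pattern in genes named above and were picked with the values known. The capitals mark GAGGAAGT or its reverse complement ACTTCCTC, read along the strand of the gene. The first 4 genes were lower in M2 and the last 2, Cd5 and Cxcr3, were higher, so the letters occurred on both sides. The windows lie at chr4:136893091-136893120 (minus strand), chr1:171018891-171018920 (plus), chr9:7344298-7344327 (plus), chr16:48842400-48842429 (plus), chr19:10739009-10739038 (minus) and chrX:101734148-101734177 (minus), in this order.
C1qc: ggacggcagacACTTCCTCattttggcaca
Fcgr4: taaggctatttACTTCCTCtcttctagtca
Mmp12: ccacttcacccACTTCCTCttccaagactc
Retnla: gaagtgggtttACTTCCTCaagtctcttga
Cd5: ggtttcacaggGAGGAAGTtgacagttcaa
Cxcr3: gccgtgaaatcttcACTTCCTCtgttcact

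The RUNX letters TGTGGTT, or their reverse complement AACCACA, are marked in the same way in 3 genes that were higher in M2, Lck, Gzmb and Cd96, and in Retnla, which was lower. They were also found in other list genes lower in M2, among them Lyz2, Cybb and Mmp13, so these letters too occurred on both sides. The windows lie at chr4:129573681-129573710, chr14:56262350-56262379 and chr16:46120259-46120288, on the minus strand, and at chr16:48842418-48842447, on the plus strand. In Lck the pattern ended 51 bases before the annotated start site, in Gzmb 27 and in Cd96, a receptor of T and NK cells at 34.8 against 0.0326 FPKM, 22. A match of this length says nothing by itself of binding.
Lck: tgctggaggctTGTGGTTgggttgctgggg
Gzmb: gtgggttctgcTGTGGTTacttcatgattc
Cd96: acttagccctgAACCACActactttcctgt
Retnla: caagtctcttgAACCACAcctcttctactt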

How the data were processed

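RNA of sorted cells was measured in 3 libraries, M1, M2 and CD4, with 1 per subset, and grouped by title. The authors aligned reads from the TruSeq RNA kit to MM9 with TopHat 1.4.1 and Bowtie 0.12.8, estimated transcript levels with Cufflinks 2.1.0 guided by Ensembl release 67, and deposited 1 table in FPKM. The submitters' processing notes also name Cuffdiff. How the assemblies were joined is not given in the sources used here, and the kit does not mark strand, so overlapping genes on opposite strands are uncertain.

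Of 135070 rows, 10182 had no identifier and were left out. For each of 92519 identifiers the first row with a value in all 3 columns was kept (90430 identifiers), 97.6% of these were matched to the GENCODE vM1 annotation of NCBIM37, and levels were summed per gene. Genes with at least 1 FPKM in M2 or M1 were compared by the log2 ratio with a pseudocount of 1 FPKM and limits of 2-fold. Where a list symbol had several gene identifiers, the gene with the highest level was used, and older symbols were matched through RefSeq. No p-value was calculated. The number of fragments per library was estimated by taking the commonest low product of FPKM and length as 1 fragment.

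The comparison, the gene lists and the alternatives were chosen with earlier results of these data known. Genes named were list members and the 15 largest ratios in each direction among named protein-coding genes with at least 10 FPKM in either library. The levels of some of these genes are not reported here by themselves, and they are part of the counts and medians. Names outside this rule were chosen after their values were seen. The alternatives were another pseudocount, minimum level, limit, choice of row, centring on the median and protein-coding genes only, and, added after the zeros were seen, genes above 0 in both columns. Calculations were tested on simulated data and run in Python 3.11.15 (pandas 2.3.3, numpy 2.4.6, matplotlib 3.10.9, scipy 1.17.1).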

Additional observations from a re-analysis of the deposited data

Results flagged for a closer look

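For 7 list members, no row was complete in all 3 columns, so they were not compared above. Summed over all their rows, they still gave a signal in the table. Trac, the constant gene of the T cell receptor alpha chain, was at 385.6 FPKM in M2 and 0.623 in M1. Icos, a costimulatory receptor of T cells, was at 17.7 and 0.218, and Rhoh, a GTPase of T cell receptor signalling, at 34.5 and 1.90. Ighm, the constant gene of immunoglobulin M, was at 346 FPKM in M2 and 11.5 in M1. These 4 lymphocyte genes were higher in M2, as were most measured members of their lists. Tlr1, a Toll-like receptor, was at 48.5 FPKM in M2 and 18.1 in M1. Ly96, the partner of Tlr4, was at 4.03 and 4.01, and Il18, an inflammasome cytokine, at 2.14 and 5.0. Sums over rows can count assembled fragments of a transcript more than once, and the differences were not tested.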

How the results depend on the processing

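No paired analysis was possible because each subset had 1 library. For the same reason no replicate could be left out. Of 309 list medians computed under other settings, 301 moved by less than the spread of their members and 7 moved further. With a minimum of 10 FPKM 2 medians changed sign, those of the chemokine receptors and of the dendritic cell genes, the latter from 0.59 to −0.16. With a pseudocount of 0.1 FPKM, Pearson's r was 0.564 and the medians were 9.75 for CD3 and T cell receptor constant genes, 7.46 for T cell receptor signalling, 7.73 for surface co-receptors, 5.33 for regulatory T-cell genes, 5.66 for B-cell genes, 3.98 for cytotoxic genes and 3.19 for erythroid genes, because a smaller pseudocount compresses low levels less. With a minimum of 10 FPKM, 1020 genes were higher and 1157 lower, Pearson's r was 0.450, Spearman's rho 0.511 and the median of the chemokine receptors −0.74, with 6715 genes left. Without a minimum the correlations were 0.902 and 0.870 over 36835 genes. With a limit of 2 on the log2 scale 799 genes were higher and 688 lower.

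The share of higher genes among all genes past a limit was 53.9%, and 46.9% with the minimum of 10 FPKM. With all rows of an identifier summed it was 59.9%, with 2806 genes higher and 1877 lower. Then 81.8% of the higher and 78.5% of the lower genes kept their call, 21 higher genes became lower and 41 lower genes became higher, and 38 of the 409 measured list members changed their call. Among genes above 0 in both libraries, chosen after the zeros were seen, 1526 were higher and 1479 lower. Centring on the median ratio of 0.04 gave 1994 and 1885. Levels of a few fragments limit the ratios of genes that were near 0 in either library.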

Other observations

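Gene families outside the lists were described by their shared symbol, a choice made after the values were seen. All 7 measured Gimap genes, which encode GTPases of lymphocyte survival, were higher in M2 (median log2 ratio 5.80), with Gimap1 at 63.5 against 0.212 FPKM in M2 and M1, Gimap7 at 59.5 against 0.0845 FPKM and Gimap9 at 77.6 against 0.652 FPKM. Of 11 measured guanylate-binding protein genes 8 were higher and 0 lower (median 1.78), with Gbp4 at 60.5 against 9.0 FPKM and Gbp6 at 23.6 against 1.85 FPKM, although these similar genes can share reads. Of 15 measured Clec genes, which encode C-type lectins, 11 were lower (median −3.84), with Clec4a2, an inhibitory receptor of myeloid cells, at 6.83 against 180.4 FPKM and Clec12a, an inhibitory receptor for uric acid crystals, at 3.41 against 80.3 FPKM. The higher members were Clec2d, a ligand of NK cell receptors, at 80.2 against 24 FPKM and Clec2i at 13.9 against 2.92 FPKM.

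Some cytokine receptors and Stat genes, also picked with the values known, are given as examples. Il2rb, a chain of the interleukin 2 receptor, was at 45.9 against 0.177 FPKM, Il27ra, the receptor for interleukin 27, at 76.8 against 3.55 FPKM and Il21r, that for interleukin 21, at 37.1 against 4.0 FPKM. Il10ra, a chain of the interleukin 10 receptor, was at 3.05 against 47.1 FPKM and Il1rn, the interleukin 1 receptor antagonist, at 6.5 against 109.8 FPKM. Il6ra, the receptor chain for interleukin 6, was close in both, at 43.1 against 47.9 FPKM. Of 7 measured Stat genes 3 were higher in M2 and 0 lower. Stat4, which acts downstream of interleukin 12, was at 23.8 against 0.947 FPKM, while Stat3 was at 45.1 against 48.2 FPKM and within the limits.

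Ptprc, which encodes CD45, was at 285 against 193 FPKM and within the limits, but its transcripts differed. The transcript of 32 exons was at 46.2 FPKM in M2, 16.2% of the gene, and listed at 0 in M1. The transcript of 30 exons was at 125 FPKM in M2 and 119 in M1, and that of 29 exons at 113 and 73.9. The transcripts share most of their exons, and Cufflinks divided their fragments by a model. With all rows summed, the gene was at 555 FPKM in M2 and 193 in M1, past the limit.

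Among rows without an identifier, 4907 had a level above 0 in M2 and 3693 in M1.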
